A study of Homo sapiens with 52 samples.

Results

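The mRNAs of 9 translation initiation factors, EIF1, EIF5, EIF2S1, EIF2S2, EIF2S3, EIF5B, EIF4A1, EIF3A and EIF4G2, were followed in HEK293T cells (a line derived from human embryonic kidney) by 4 sequencing assays. Each factor was represented by 1 fixed Ensembl transcript, so that 9 of the 226882 transcripts in the count table were described. The transcripts were ENST00000469257.2 for EIF1, ENST00000216554.8 for EIF5, ENST00000256383.9 for EIF2S1, ENST00000374980.3 for EIF2S2, ENST00000253039.9 for EIF2S3, ENST00000289371.11 for EIF5B, ENST00000293831.13 for EIF4A1, ENST00000369144.8 for EIF3A and ENST00000339995.10 for EIF4G2. All 9 had counts in every library and passed the filter on low counts in every comparison. The files carry transcript identifiers without gene names, so the names are those given with the choice of transcripts.

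RNA-seq (polyadenylated RNA) and Ribo-seq (ribosome-protected fragments after cycloheximide and RNase I) were each made from wild type cells (WT), MCTS1 knockout #1 and #2 (MCTS1 KO), cells given a control siRNA (siControl) and cells given DENR siRNA #1 or #2 (siDENR), with 2 libraries per group. TCP-seq, which captures fragments protected by ribosomal complexes, was made from WT cells (4 libraries) and from eIF2D KO #1, eIF2D KO #2, MCTS1 KO #1 and MCTS1 KO #2 (2 libraries each). In 40S Sel-TCP-seq, small-subunit complexes were selected through V5-tagged eIF2D, MCTS1 or DENR (2 libraries each), and the labels do not give the genotype of the cells with the tagged proteins. The numbers #1 and #2 were read as 2 clones of a knockout or 2 siRNAs, and no label states that replicate libraries come from separate cultures. Every p-value below therefore rests on library-to-library spread alone, which may be technical.

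Translation begins when a small ribosomal subunit carrying initiation factors scans an mRNA for a start codon. eIF1 keeps the scanning complex from accepting poor start sites, and eIF5 promotes start-site acceptance as the GTPase activator of eIF2. The EIF1 mRNA starts at an AUG in a poor context and the EIF5 mRNA carries upstream AUGs in poor contexts, so that each protein is known to tune its own translation. EIF2S1, EIF2S2 and EIF2S3 encode the alpha, beta and gamma subunits of eIF2, which brings the initiator tRNA, and EIF5B encodes the GTPase that joins the large subunit. EIF4A1 encodes an RNA helicase that unwinds mRNA leaders, EIF3A a scaffold subunit of eIF3, and EIF4G2 (DAP5) an eIF4G relative that does not bind the cap-binding protein eIF4E. eIF2D and the MCTS1-DENR heterodimer are related factors that remove tRNA and the small subunit from mRNA after termination, and MCTS1-DENR also supports reinitiation after short upstream reading frames.

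RNA-seq was the deepest assay, with 76967099 to 301214608 counts in a library. Ribo-seq libraries held 16370112 to 193940882 counts, TCP-seq libraries 1609303 to 5053637 and selected libraries 356019 to 2582917. The counts of 1 member in 1 library accordingly ranged from 1295 to 75157 in RNA-seq and from 2 to 690 in Sel-TCP-seq, and the precision falls in that order. Levels are given as CPM, counts scaled to a library total of 1000000. They are not scaled to transcript length and are not compared between genes. Counts of EIF4A1 rose and fell between replicates with those of 31 other transcripts (correlation of replicate deviations over 0.95), those of EIF1 with 4, EIF3A with 3 and EIF5B with 1, so reads may be shared with other transcripts or with near-identical gene copies, and these levels are uncertain to that extent. The levels of MCTS1, DENR and EIF2D, the other genes of the initiation pathway and the marker genes of HEK293T cells were not analysed here, because no table used here pairs transcripts with genes. Fewer cells with an mRNA and less of it per cell cannot be told apart in these bulk libraries.

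Many mRNAs of the translation machinery begin with a C followed by an unbroken stretch of pyrimidines, the start of a TOP motif, and the windows around the annotated gene start (10 bases before it and the first 20 of the transcribed strand, RefSeq, GRCh38.p14) are shown for EIF1, EIF2S3, EIF4A1 and EIF5B, whose changes lead the results below. Capitals mark a C followed by at least 4 C or T.
EIF1, chr17:41688875-41688904, + strand: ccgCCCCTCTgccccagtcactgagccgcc
EIF2S3, chrX:24054946-24054975, + strand: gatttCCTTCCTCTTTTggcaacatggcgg
EIF4A1, chr17:7572815-7572844, + strand: ggcactccgccctagtttctaaggatcatg
EIF5B, chr2:99337379-99337408, + strand: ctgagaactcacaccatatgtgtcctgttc

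A window was at hand for 7 of the 9 genes, and 2 of these, EIF1 (a run of 7 bases) and EIF2S3 (a run of 12 bases), held such a run, against 38.4% of 35116 windows of the same length. The EIF1 run ended just before the annotated start, so it lies outside the annotated transcript, and the EIF2S3 run spanned the start. The search read the transcribed strand only and, as a string match, shows neither a start site in these cells nor a motif in use. A link between such a run and the changes given below was not tested.

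In WT cells the members spread widely in the ratio of Ribo-seq to RNA-seq CPM. This ratio is not scaled to the coding part of a transcript, and shared reads can enter it. The order of genes given here therefore need not be an order of translation. EIF4G2 stood lowest. Its RNA-seq level was 294 and 308 CPM in the 2 WT libraries and its Ribo-seq level 81.2 and 77.3 CPM, a ratio of 0.263 (0.251 to 0.276 over the library pairs). Of 28121 transcripts with at least 5 CPM in both assays, whose median ratio was 0.995, 1.54% lay below it. The siControl cells gave EIF4G2 a ratio of 0.265, also the lowest of the 9. The mRNAs of the start-codon selection factors also lay below the median, EIF5 at 0.613 (0.573 to 0.656) and EIF1 at 0.662 (0.639 to 0.686). EIF5B at 0.821, EIF2S2 at 0.920, EIF3A at 0.979 and EIF2S3 at 1.01 followed, and EIF2S1 at 1.32 and the helicase mRNA EIF4A1 at 1.40 (1.38 to 1.42) stood highest. The library-pair ranges of neighbours in this order overlapped for EIF5 and EIF1, for EIF5B and EIF2S2, for EIF2S2 and EIF3A, for EIF3A and EIF2S3, and for EIF2S1 and EIF4A1. In siControl cells the outer pairs changed places, with EIF1 at 0.539 below EIF5 at 0.666 and EIF2S1 at 1.66 above EIF4A1 at 1.54. EIF5B at 0.932, EIF2S2 at 0.977, EIF3A at 1.00 and EIF2S3 at 1.05 kept their WT order there.

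TCP-seq ordered the members differently. EIF4A1, with EIF2S1 the highest by Ribo-seq, had the lowest TCP-seq to RNA-seq ratio, 0.419 (0.385 to 0.456), against a median of 0.823 over 28038 transcripts. Its TCP-seq to Ribo-seq ratio was 0.300, and 5.97% of 23482 transcripts lay below that. EIF4G2 was the reverse, with 160.5, 152, 154 and 163 CPM in the 4 WT TCP-seq libraries and a TCP-seq to Ribo-seq ratio of 1.99 (1.88 to 2.10), above 88.5% of transcripts. EIF5 had a TCP-seq to Ribo-seq ratio of 1.55 (1.33 to 1.71) and EIF1 one of 0.998 (0.860 to 1.07), and these ranges did not overlap. These ratios set 2 protocols side by side at 1 transcript each, were chosen as descriptions, and were not tested.

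**Figure D1:**
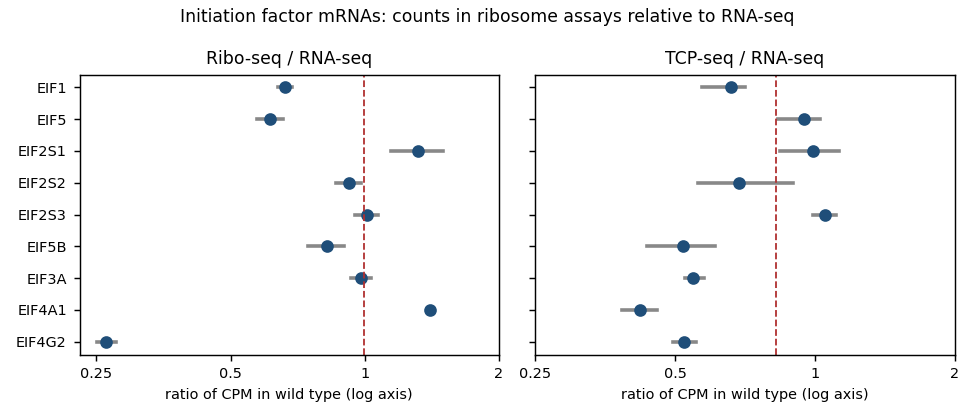
Ratio of CPM in WT cells, Ribo-seq over RNA-seq (left) and TCP-seq over RNA-seq (right), on log axes. Points are ratios of group means, bars run from the lowest to the highest ratio over library pairs, and the dashed line is the median of all transcripts with at least 5 CPM in both assays (0.995 and 0.823); EIF4G2 lies at 0.263 on the left, and EIF4A1 at 1.40 on the left and 0.419 on the right.

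In both MCTS1 KO clones the EIF1 mRNA lay above WT and the EIF4A1 and EIF2S3 mRNAs below it. The other mRNAs called over both clones were lower by small amounts and passed in 1 clone alone. In RNA-seq, 8 of the 9 members passed the test (edgeR quasi-likelihood, Benjamini-Hochberg adjusted p under 0.05, mean of both clones against WT), 1 higher and 7 lower, where 24.9% of all 131951 transcripts tested did so (11.4% higher, 13.5% lower). The median log2 change of the members was -0.14 and that of all transcripts -0.01. Every member had at least 1295 counts in each RNA-seq library, whereas the filter on low counts used a minimum of 10. Shares over all transcripts, here and below, are thus not matched for abundance. Whether the members differ from transcripts of like abundance was not tested. Clone #1 alone gave calls for 42.2% of transcripts and clone #2 for 14.9%, and the clones differed from each other for 45.8%. Clone #1 was also sequenced deepest, with 301214608 and 150951436 RNA-seq counts against 79851240 to 89789500 in WT and clone #2. In Ribo-seq it had 193940882 and 148159238 counts against 25785993 to 53386368. Depth and clone cannot be told apart in these shares of calls. The RNA-seq changes of the members over both clones ran from -0.34 for EIF4A1 to 0.31 for EIF1.

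EIF1, the gatekeeper of start-codon choice, was at 106 and 109 CPM in WT, at 149.7 and 148 in clone #1 and at 119.9 and 117 in clone #2. Every KO library lay above both WT libraries, and the clones did not overlap. The log2 change was 0.31 ± 0.03 (SE, adjusted p = 2.8e-12), with 0.43 in clone #1 and 0.18 in clone #2. EIF5, its antagonist, did not pass the test over both clones (69.3 and 72.4 CPM in WT, 67.7 and 67.0 in clone #1, 75.3 and 75.6 in clone #2). Its change was 0.01 ± 0.03 (adjusted p = 0.85), made of -0.11 (adjusted p = 0.013) in clone #1 and 0.13 (adjusted p = 0.0089) in clone #2. The 2 clones thus fell on opposite sides of WT for EIF5.

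All 3 subunits of eIF2 fell in RNA-seq. EIF2S3 went from 92.0 and 95.4 CPM in WT to 84.8 and 84.9 in clone #1 and 81.2 and 81.6 in clone #2, a log2 change of -0.17 ± 0.03 (adjusted p = 2.2e-05). EIF2S1 changed by -0.15 ± 0.04 (adjusted p = 0.0061) and EIF2S2 by -0.14 ± 0.04 (adjusted p = 0.0020). EIF4A1, the helicase mRNA, had the most negative change of the 9. It was at 309.5 and 306 CPM in WT, 246 and 255 in clone #1 and 237 and 234 in clone #2, with no overlap, and fell by 0.34 ± 0.03 on the log2 scale (adjusted p = 9.8e-15) to about the same level in both clones. EIF5B, which encodes the subunit-joining GTPase, changed by -0.12 ± 0.04 (adjusted p = 0.0077). Alone, clone #2 did not pass for EIF2S1 (-0.09, adjusted p = 0.27), EIF2S2 (-0.06, adjusted p = 0.37) or EIF5B (-0.08, adjusted p = 0.23), and clone #1 passed for all 3.

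For EIF3A and EIF4G2, too, 1 clone alone passed. EIF3A was at 97.8 and 93.2 CPM in WT, 100.0 and 96.9 in clone #1 and 76.7 and 75.9 in clone #2, so that clone #1 overlapped WT and clone #2 lay below it. The change over both was -0.14 ± 0.03 (adjusted p = 0.00068). EIF4G2 showed the converse, with 294 and 308 CPM in WT, 249.5 and 243 in clone #1 and 293 and 291 in clone #2, and a change of -0.17 ± 0.03 (adjusted p = 1.1e-05). The difference between the clones passed the test for both mRNAs (0.29 ± 0.04, adjusted p = 1.1e-09 for EIF3A and -0.33 ± 0.03, adjusted p = 1.8e-12 for EIF4G2, clone #1 minus clone #2), as it did for 45.8% of all transcripts. With 1 library left out the call was lost for EIF5B (adjusted p = 0.21), EIF2S1 (0.16) and EIF3A (0.10) without WT replicate 1, for EIF2S2 (0.051) without WT replicate 2, and for EIF2S1 (0.060) without clone #2 replicate 1.

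In Ribo-seq of the same groups, 3 members passed the test, 1 higher and 2 lower, against 6.1% of 115412 transcripts (2.72% higher, 3.37% lower). Alone, clone #1 gave calls for 16.6% and clone #2 for 3.61%, and the clones differed for 18.6%. EIF1 footprints were at 69.7 and 72.5 CPM in WT, 128 and 117 in clone #1 and 83.0 and 82.1 in clone #2, all KO libraries above WT. The log2 change was 0.49 ± 0.07 (adjusted p = 4.1e-05), and the clones differed, with 0.77 (adjusted p = 8.8e-08) in clone #1 and 0.20 (adjusted p = 0.15) in clone #2. EIF4A1 footprints fell by 0.25 ± 0.06 (adjusted p = 0.0066) from 433 and 427 CPM in WT to 390.2 and 398 in clone #1 and 336 and 337 in clone #2, and EIF2S3 footprints by 0.26 ± 0.06 (adjusted p = 0.016) from 98.5 and 90.6 CPM to 85.5 and 80.3 and to 76.5 and 75.4. The groups did not overlap for either mRNA. Alone, clone #2 passed for both (EIF4A1 -0.37, adjusted p = 0.0011, and EIF2S3 -0.32, adjusted p = 0.014) and clone #1 for neither (EIF4A1 -0.14, adjusted p = 0.15, and EIF2S3 -0.20, adjusted p = 0.069).

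The other 6 members, EIF5, EIF2S1, EIF2S2, EIF5B, EIF3A and EIF4G2, had Ribo-seq changes between -0.13 and -0.01 that did not pass the test. Among them, EIF5 footprints were at 45.4 and 41.5 CPM in WT, 36.2 and 35.6 in clone #1 and 47.0 and 46.1 in clone #2, and clone #1 alone gave -0.28 (adjusted p = 0.016). EIF2S3 lost its call without clone #1 replicate 2 (adjusted p = 0.072), clone #2 replicate 1 (0.11) or clone #2 replicate 2 (0.12), and EIF4A1 without clone #2 replicate 1 (0.095) or replicate 2 (0.093). EIF2S1 gained one without WT replicate 2 (-0.30, adjusted p = 0.0044).

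Translational efficiency, the change in Ribo-seq beyond that in RNA-seq, did not pass the test for any member over both MCTS1 KO clones (edgeR, 1 member with an unadjusted p under 0.05), where 0.872% of 108757 transcripts passed (0.336% higher, 0.536% lower). The changes ran from -0.12 for EIF5 to 0.16 ± 0.07 (adjusted p = 0.40) for EIF1, with EIF2S1, EIF2S2, EIF2S3, EIF5B, EIF4A1, EIF3A and EIF4G2 in between. In clone #1 alone, EIF1 (0.32 ± 0.08, adjusted p = 0.012) and EIF4G2 (0.35 ± 0.08, adjusted p = 0.0049) passed, as did 5.4% of transcripts, against 0.12% in clone #2. The EIF4G2 mRNA was lower in that clone while its footprints, 85.0 and 79.0 CPM against 81.2 and 77.3 in WT, overlapped WT. The efficiency change of clone #1 minus that of clone #2 passed the test for EIF1 (0.31, adjusted p = 0.011), EIF2S2 (0.35, adjusted p = 0.013) and EIF4G2 (0.46, adjusted p = 0.00013), and for 6.27% of transcripts.

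**Figure D2:**
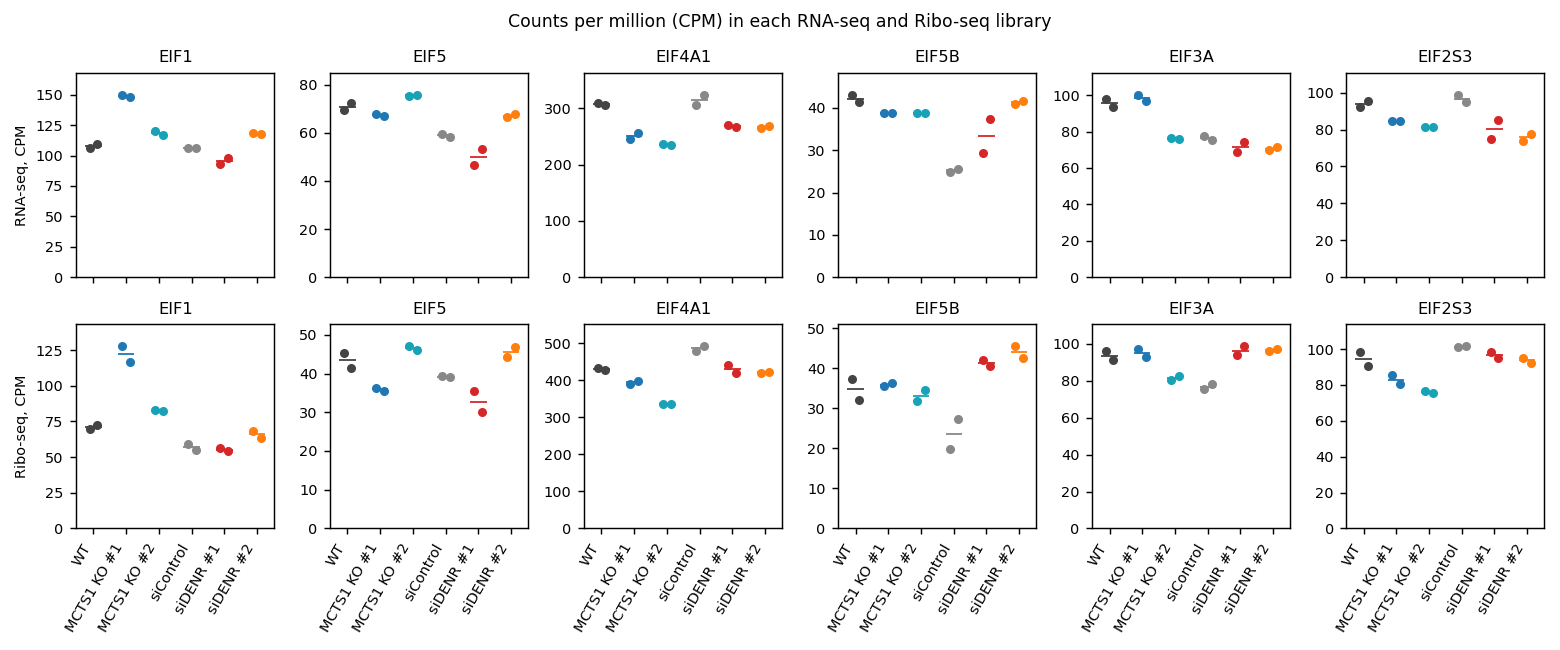
CPM in each RNA-seq (top) and Ribo-seq (bottom) library for 6 of the mRNAs, in WT, MCTS1 KO #1 and #2, siControl and siDENR #1 and #2. Points are libraries and lines group means; EIF1 is above both WT libraries in every MCTS1 KO library of both assays, and EIF5B is above both siControl libraries in every siDENR library.

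Depletion of DENR, the partner of MCTS1, is read here from the siRNA label, since DENR levels were not analysed. With DENR siRNA, EIF5B was higher than in siControl in both assays, where siControl itself lay below untreated WT. EIF1 did not pass the test in either over both siRNAs, which moved its mRNA in opposite directions. In RNA-seq, 6 of the 9 members passed, 1 higher and 5 lower, against 23.1% of 131311 transcripts (10.2% higher, 12.9% lower). In Ribo-seq, 4 passed, 2 higher and 2 lower, against 10.4% of 108890 transcripts (4.37% higher, 6.05% lower). Alone, siRNA #1 and #2 gave calls for 26% and 19.2% of transcripts in RNA-seq and for 10.6% and 9.21% in Ribo-seq. The median RNA-seq change of the members was -0.15 and that of all transcripts -0.01.

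EIF5B mRNA was at 24.9 and 25.6 CPM in siControl, 29.4 and 37.4 with siDENR #1 and 40.9 and 41.7 with siDENR #2. All siDENR libraries lay above siControl, and the change was 0.53 ± 0.07 (adjusted p = 2.4e-08), with 0.40 for siRNA #1 and 0.65 for siRNA #2. Its footprints were at 19.9 and 27.2 CPM in siControl, 42.0 and 40.4 with siDENR #1 and 45.4 and 42.6 with siDENR #2, a log2 change of 0.83 ± 0.08 (adjusted p = 2.8e-09). In untreated WT cells EIF5B was at 43.0 and 41.4 CPM in RNA-seq and 37.3 and 32.1 in Ribo-seq, above siControl in both assays. The siDENR #1 mRNA lay between siControl and WT, siDENR #2 mRNA overlapped WT, and the footprints of all 4 siDENR libraries lay above both WT libraries. WT was not tested against the siRNA groups.

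EIF3A was the member whose footprints and mRNA parted. Its mRNA was at 77.8 and 75.5 CPM in siControl, 69.0 and 74.3 with siDENR #1 and 69.9 and 71.5 with siDENR #2, and its change of -0.14 ± 0.06 did not pass the test (adjusted p = 0.071). Its footprints were at 75.3 and 78.3 CPM in siControl, 93.9 and 98.7 with siDENR #1 and 96.1 and 97.4 with siDENR #2. All 4 siDENR libraries thus lay above siControl in Ribo-seq and below it in RNA-seq. The footprint change was 0.31 ± 0.05 (adjusted p = 4.5e-06), and EIF3A was the only 1 of the 9 whose translational efficiency passed the test, at 0.43 ± 0.07 (adjusted p = 0.00060), where 0.369% of 102515 transcripts did so (0.244% higher, 0.125% lower). Both siRNAs passed alone, with 0.38 (adjusted p = 0.029) and 0.49 (adjusted p = 0.00059), where 0.217% and 0.591% of transcripts did so. The siRNAs differed in efficiency for 1.02% of transcripts and for no member. Efficiency changes of EIF1, EIF5, EIF2S1, EIF2S2, EIF4A1 and EIF4G2 lay between -0.05 and 0.08. In untreated WT cells the EIF3A footprints were at 96.1 and 91.0 CPM, near the siDENR values, but its mRNA was at 97.8 and 93.2 CPM, above them. The WT ratio of footprints to mRNA, 0.979, was thus close to that of siControl, 1.00.

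The eIF2 mRNAs fell with DENR depletion in RNA-seq without a footprint change that passed the test. EIF2S3 was at 98.7 and 94.8 CPM in siControl, 74.8 and 85.3 with siDENR #1 and 74.1 and 77.4 with siDENR #2, with no overlap, a change of -0.34 ± 0.06 (adjusted p = 3.8e-06). Its footprints changed by -0.11 ± 0.05 (adjusted p = 0.13), those of EIF2S1 by -0.20 (adjusted p = 0.066) and those of EIF2S2 by -0.10 (adjusted p = 0.37). Its translational efficiency, 0.22 ± 0.08, did not pass (adjusted p = 0.25) unless RNA-seq siDENR #1 replicate 2 was left out (0.27, adjusted p = 0.034). EIF2S1 changed by -0.21 ± 0.07 (adjusted p = 0.028) and EIF2S2 by -0.17 ± 0.06 (adjusted p = 0.037) in RNA-seq, and neither siRNA alone passed for EIF2S1 (adjusted p = 0.053 and 0.078). EIF2S2 was at 37.3 and 39.7 CPM in siControl, 28.6 and 32.6 with siDENR #1 and 38.9 and 40.6 with siDENR #2, so that only siRNA #1 lay below siControl.

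EIF4A1 fell in both assays with DENR depletion, as it did with MCTS1 KO. Its mRNA was at 307 and 323.5 CPM in siControl, 271 and 266 with siDENR #1 and 265 and 268 with siDENR #2, a log2 change of -0.26 ± 0.05 (adjusted p = 4.0e-05). Its footprints were at 480.4 and 492 CPM in siControl and between 419 and 442 in the 4 siDENR libraries, a change of -0.21 ± 0.04 (adjusted p = 8.8e-06). EIF4G2 changed by -0.15 ± 0.05 in RNA-seq (adjusted p = 0.026) and -0.20 ± 0.05 in Ribo-seq (adjusted p = 0.0071). In RNA-seq siRNA #1 gave -0.30 and siRNA #2 0.00, and in Ribo-seq siRNA #1 gave -0.25 and siRNA #2 -0.15 (adjusted p = 0.14).

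EIF1 and EIF5 did not pass the test over both DENR siRNAs in either assay, with changes between -0.05 and 0.06. In RNA-seq these means averaged libraries below siControl with siRNA #1 and above it with siRNA #2. EIF1 mRNA was at 106 and 106 CPM in siControl, 93.2 and 97.7 with siDENR #1 and 119 and 117 with siDENR #2. EIF5 mRNA was at 59.6 and 58.1 CPM, 46.5 and 53.4, and 66.5 and 67.7 in the same order. The siRNAs differed for both mRNAs, EIF5 footprints being at 39.3 and 39.1 CPM in siControl, 35.5 and 30.0 with siDENR #1 and 44.2 and 46.9 with siDENR #2 (siRNA #1 minus #2, -0.48 ± 0.08, adjusted p = 8.5e-06). Such differences passed for 24.8% of transcripts in RNA-seq and 11.1% in Ribo-seq. A test of the MCTS1 KO change against the DENR change was not made, since they came from separate fits with separate controls. Outside EIF5B, EIF2S3 and EIF4A1, the RNA-seq calls were fragile: EIF2S1, EIF2S2 and EIF4G2 lost theirs with library totals in place of TMM (adjusted p = 0.063, 0.082 and 0.058), EIF2S1 and EIF2S2 with DESeq2 (0.068 and 0.071), and all 3 without siControl replicate 1 (0.18, 0.081 and 0.22), siControl replicate 2 (0.22, 0.49 with EIF2S2 at -0.11 log2, and 0.15), siDENR #1 replicate 1 (0.055, 0.056 and 0.059) or siDENR #2 replicate 1 (0.13, 0.14 and 0.17). Without siDENR #2 replicate 2, EIF2S2 (0.077) and EIF4G2 (0.052) lost theirs, without siDENR #1 replicate 2 EIF3A gained one (0.0060), and without Ribo-seq siControl replicate 1 the EIF4G2 footprint call was lost (0.28). The efficiency change of EIF5B, 0.30 ± 0.12 (adjusted p = 0.40), became 0.55 (adjusted p = 0.032) without Ribo-seq siControl replicate 2.

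**Figure D3:**
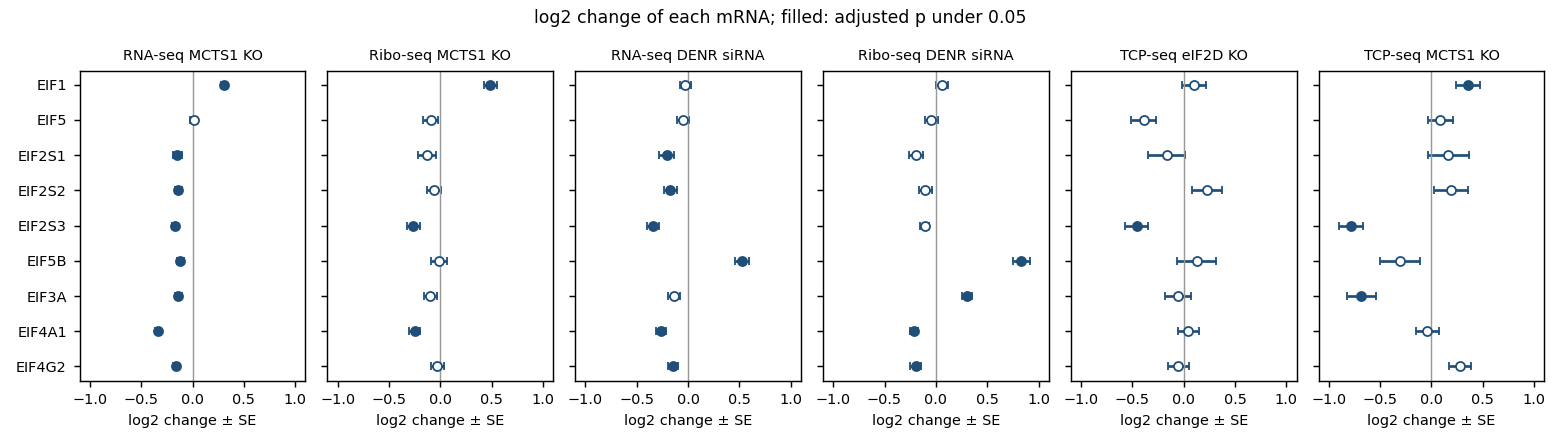
Change of each mRNA on the log2 scale (x axis, bars are ± SE) in the 6 knockout and siRNA comparisons, each averaged over its 2 clones or siRNAs and set against its control. Filled points have an adjusted p under 0.05; EIF1 is filled to the right of 0 in all 3 MCTS1 KO panels, EIF4A1 to the left in the 4 RNA-seq and Ribo-seq panels, and EIF2S3 to the left in all panels but Ribo-seq with DENR siRNA, where its point is open.

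In TCP-seq, EIF2S3, which encodes the gamma subunit of eIF2, was the member called lower in both knockouts, in the eIF2D KO through clone #2. Its 4 WT libraries were at 98.9, 102, 94.6 and 98.4 CPM. The eIF2D KO gave 101 and 81.6 CPM in clone #1 and 60.9 and 69.8 in clone #2, so that clone #1 overlapped WT and clone #2 did not. Against WT replicates 1 and 2, the run of library names that the eIF2D KO continues, the change was -0.46 ± 0.11 (adjusted p = 0.0096), with -0.24 (adjusted p = 0.38) in clone #1 and -0.68 (adjusted p = 0.00016) in clone #2. EIF2S3 was the only 1 of the 9 to pass with eIF2D KO, where 1.61% of 50991 transcripts passed (0.604% higher, 1.01% lower), and 1.84% passed in clone #1 alone and 3.29% in clone #2. A larger share, 2.59%, was called between WT replicates 3 and 4 and WT replicates 1 and 2, though no member was. The call was lost with DESeq2 (adjusted p = 0.94) and without WT replicate 1 (0.064), WT replicate 2 (0.26), clone #1 replicate 2 (0.072) or clone #2 replicate 1 (0.13).

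EIF5 was at 68.1, 69.2, 60.3 and 71.0 CPM in WT, 52.7 and 50.8 in eIF2D KO clone #1 and 60.6 and 54.6 in clone #2, and 1 KO library overlapped WT. Its change of -0.39 ± 0.12 did not pass over both clones against WT replicates 1 and 2 (adjusted p = 0.057), and it passed in clone #1 alone (-0.50, adjusted p = 0.026) and against all 4 WT libraries (-0.36, adjusted p = 0.0066). The remaining 7 members, EIF1, EIF2S1, EIF2S2, EIF5B, EIF3A, EIF4A1 and EIF4G2, had eIF2D KO changes between -0.17 and 0.22, and none passed. The 0.22 of EIF2S2 (adjusted p = 0.57) depended on the WT libraries, at 39.9, 25.5, 31.0 and 26.8 CPM. All 4 eIF2D KO libraries, at 41.3, 40.1, 41.8 and 42.9 CPM, lay above them. The change was 0.59 without WT replicate 1 (adjusted p = 0.31), 0.03 without WT replicate 2 (0.98), 0.43 against WT replicates 3 and 4 (0.062) and 0.33 against all 4 (0.073). EIF4A1 was at 132.5 and 124 CPM in clone #1 and 168 and 165 in clone #2, against 119 to 139 in WT, a difference between clones that passed the test (-0.44 ± 0.12, adjusted p = 0.0063), as did 8.23% of transcripts.

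In MCTS1 KO cells 3 members passed in TCP-seq against WT replicates 3 and 4, 1 higher and 2 lower, against 13.8% of the 50991 transcripts (7.28% higher, 6.56% lower). Alone, clone #1 gave calls for 4.99% and clone #2 for 19.1%. EIF2S3 was at 63.0 and 61.5 CPM in clone #1 and 53.1 and 52.7 in clone #2, below all 4 WT libraries. Its log2 change was -0.78 ± 0.12 (adjusted p = 7.6e-08), set beside -0.17 ± 0.03 in RNA-seq and -0.26 ± 0.06 in Ribo-seq of the same knockout. EIF3A, the eIF3 scaffold mRNA, was at 51.2, 51.5, 52.2 and 53.7 CPM in WT, 37.6 and 40.4 in clone #1 and 31.0 and 27.5 in clone #2. It had no overlap with WT and a change of -0.68 ± 0.14 (adjusted p = 0.00016). Its RNA-seq level overlapped WT in clone #1 and lay below it in clone #2 (76.7 and 75.9 CPM against 97.8 and 93.2). The RNA-seq change over both clones was -0.14 ± 0.03. The TCP-seq calls of EIF2S3 and EIF3A were kept under every alternative tried.

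EIF1 was at 74.3, 62.4, 74.6 and 72.6 CPM in WT TCP-seq, 85.3 and 107 in MCTS1 KO clone #1 and 101 and 93.2 in clone #2, above WT in every KO library. Its change was 0.35 ± 0.12 (adjusted p = 0.029). That call was lost with DESeq2 (adjusted p = 0.12) and without WT replicate 3 (0.27), WT replicate 4 (0.10), clone #1 replicate 2 (0.16) or clone #2 replicate 1 (0.085). EIF4G2, the DAP5 mRNA, was at 194.5 and 185 CPM in clone #1 and 212 and 196 in clone #2, also above WT throughout. Its change of 0.28 ± 0.10 did not pass against WT replicates 3 and 4 (adjusted p = 0.054) and did against WT replicates 1 and 2 (0.31, adjusted p = 0.049), all 4 WT (0.29, adjusted p = 0.0081) or with library totals (0.31, adjusted p = 0.012).

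The remaining 5 members, EIF5, EIF2S1, EIF2S2, EIF5B and EIF4A1, had MCTS1 KO changes in TCP-seq between -0.30 and 0.19 that did not pass. EIF4A1, lower in both MCTS1 KO clones by RNA-seq, was at 148 and 140.4 CPM in clone #1 and 95.6 and 109.5 in clone #2, on either side of the WT libraries (clone #1 minus clone #2, 0.58 ± 0.12, adjusted p = 0.00095, a difference that 3.44% of transcripts showed). The test of the MCTS1 KO change minus the eIF2D KO change passed for EIF3A (-0.63 ± 0.19, adjusted p = 0.040) and not for EIF2S3 (-0.32 ± 0.16, adjusted p = 0.28) or EIF5 (0.48 ± 0.17, adjusted p = 0.095), and for 3.54% of transcripts. WT replicates 3 and 4 against 1 and 2 gave no member that passed, with 2.59% of transcripts called. The eIF2D KO cells were followed in TCP-seq alone.

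**Figure D4:**
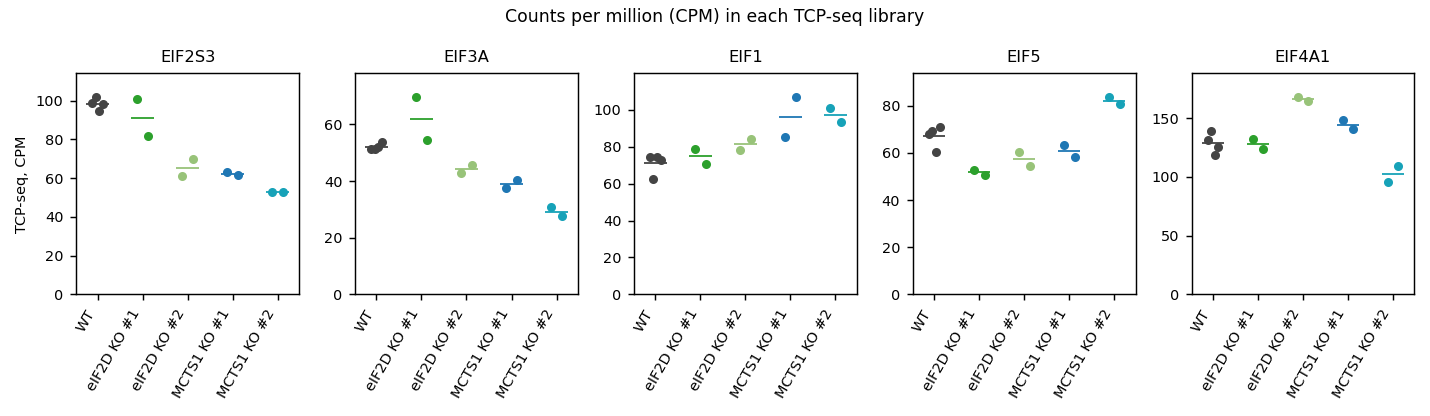
CPM in each TCP-seq library for 5 of the mRNAs, in WT and in 2 clones each of eIF2D KO and MCTS1 KO. Points are libraries and lines group means; EIF2S3 and EIF3A lie below the 4 WT libraries in all MCTS1 KO libraries, and EIF1 above them.

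In the selected libraries, eIF2D-V5 was compared with the mean of MCTS1-V5 and DENR-V5. Of the 9 members 3 passed the test, where 22.1% of 12135 transcripts did so (12.8% higher, 9.32% lower). CPM are shares of a selected library, so the amounts recovered were not measured. EIF3A and EIF5B were higher with eIF2D-V5 and EIF4G2 was lower. MCTS1-V5 and DENR-V5 gave no member and no transcript that passed against each other (edgeR, 0 members and 0 of 12135 transcripts, with 0 members at an unadjusted p under 0.05). These libraries held only 356019 to 629784 counts, so differences could go unseen and likeness is not shown. The member differences ran from -0.60 to 0.47 log2, and EIF4G2 did not overlap (118 and 132 CPM with MCTS1-V5, 163.5 and 159.5 with DENR-V5).

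EIF3A was at 57.0 and 94.9 CPM with eIF2D-V5, 14.0 and 25.7 with MCTS1-V5 and 36.5 and 20.7 with DENR-V5, from 58, 245, 5, 16, 23 and 10 counts. Both eIF2D-V5 libraries lay above the other 4, and the difference was 1.48 ± 0.33 (adjusted p = 0.0072). EIF5B was at 25.6 and 34.5 CPM with eIF2D-V5, 5.62 and 12.9 with MCTS1-V5 and 6.35 and 14.5 with DENR-V5, from 26, 89, 2, 8, 4 and 7 counts. It too did not overlap, and the difference was 1.46 ± 0.40 (adjusted p = 0.018). EIF4G2 went the other way, with 96.4 and 82.1 CPM with eIF2D-V5, 118 and 132 with MCTS1-V5 and 163.5 and 159.5 with DENR-V5, a difference of -0.82 ± 0.23 (adjusted p = 0.018).

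The other 6 members, EIF1, EIF5, EIF2S1, EIF2S2, EIF2S3 and EIF4A1, had differences between -0.52 (EIF2S1) and 0.38 (EIF1) that did not pass. Each of the 3 calls rested on eIF2D-V5 replicate 2, the deepest selected library, without which EIF3A gave 1.13 (adjusted p = 0.12), EIF5B 1.27 (adjusted p = 0.17) and EIF4G2 -0.64 (adjusted p = 0.28). EIF5B and EIF4G2 also lost theirs without DENR-V5 replicate 1 (adjusted p = 0.11 and 0.062), and EIF4G2 without DENR-V5 replicate 2 (0.057), with DESeq2 (0.081), with library totals (0.052) and with no filter on low counts (0.27).

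Set against the 4 unselected WT TCP-seq libraries, which differ from the selected ones in protocol and depth as well as in selection, 6 members passed with eIF2D-V5, 3 higher and 3 lower, against 39% of 35013 transcripts (20.9% higher, 18.1% lower). EIF4A1, the helicase mRNA, was at 189.8 and 267 CPM with eIF2D-V5 against 119 to 139 unselected, a change of 0.83 ± 0.18 (adjusted p = 0.00031). EIF1 was at 107 and 113 CPM against 62.4 to 74.6 unselected (0.63 ± 0.18, adjusted p = 0.0047), and EIF3A changed by 0.57 ± 0.20 (adjusted p = 0.020). EIF4G2 was lower (-0.84 ± 0.18, adjusted p = 0.00019), as were EIF5 at 40.3 and 47.6 CPM (-0.60 ± 0.21, adjusted p = 0.018) and EIF2S3 at 50.1 and 61.2 CPM (-0.81 ± 0.20, adjusted p = 0.00077). EIF1, EIF4A1, EIF4G2, EIF5, EIF2S3 and EIF3A had both eIF2D-V5 libraries outside the unselected range. So did EIF5B (25.6 and 34.5 CPM against 18.7 to 25.3) and EIF2S1 (11.8 and 17.4 against 18.4 to 23.7), which were not called. Lying outside that range thus does not set the called members apart, and the share of all transcripts that do so was not computed. EIF5B (0.50, adjusted p = 0.090), EIF2S1 (-0.47, adjusted p = 0.16) and EIF2S2 (0.30, adjusted p = 0.32) did not pass.

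With MCTS1-V5 and DENR-V5 against the same unselected libraries, 4 members passed, 1 higher and 3 lower, against 25.1% of transcripts (8.99% higher, 16.1% lower). The median change of all transcripts was -0.12 here. EIF3A (-0.88 ± 0.24, adjusted p = 0.0050) and EIF5B (-0.93 ± 0.34, adjusted p = 0.034) were lower, as was EIF2S3 (-0.54 ± 0.18, adjusted p = 0.022), which was at 64.6 and 61.1 CPM with MCTS1-V5 and 68.3 and 43.5 with DENR-V5. EIF4A1 was higher (0.53 ± 0.16, adjusted p = 0.014), with 101, 227, 137 and 184 CPM, of which the first lay below the unselected libraries. Without that low library's partner, MCTS1-V5 replicate 2, the EIF4A1 change was 0.12 (adjusted p = 0.70). EIF1, EIF5, EIF2S1, EIF2S2 and EIF4G2 had changes between -0.41 and 0.42 that did not pass. As both comparisons use the same unselected libraries, their likeness is not independent.

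For eIF2D-V5 against unselected, EIF3A lost its call without any single WT library (adjusted p = 0.075 to 0.11), without eIF2D-V5 replicate 2 (0.21, adjusted p = 0.64), with DESeq2 (0.21) or with no filter on low counts (0.16). EIF5 lost it without WT replicate 2 (0.060), WT replicate 4 (0.066) or eIF2D-V5 replicate 2 (0.093) and with DESeq2 (0.065), and EIF1 with no filter (0.088). For MCTS1-V5 and DENR-V5, EIF3A lost its call without DENR-V5 replicate 2 (0.051). EIF2S3 lost it without WT replicate 2 (0.061), WT replicate 4 (0.089) or DENR-V5 replicate 2 (0.20), EIF5B without WT replicate 1 (0.053), WT replicate 4 (0.069), MCTS1-V5 replicate 1 (0.084) or DENR-V5 replicate 1 (0.20) and with DESeq2 (0.095). EIF4A1 lost it without WT replicate 1 (0.083), WT replicate 3 (0.089), MCTS1-V5 replicate 2 (0.70) or DENR-V5 replicate 2 (0.16), and with library totals (0.14), no filter on low counts (0.31, adjusted p = 0.39) or DESeq2 (0.18). The EIF2S3 change was -0.83 (adjusted p = 0.0097) without DENR-V5 replicate 1. EIF5, at -0.41 (adjusted p = 0.12), gained one without MCTS1-V5 replicate 1 (-0.57, adjusted p = 0.038) or with library totals (-0.60, adjusted p = 0.025).

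**Figure D5:**
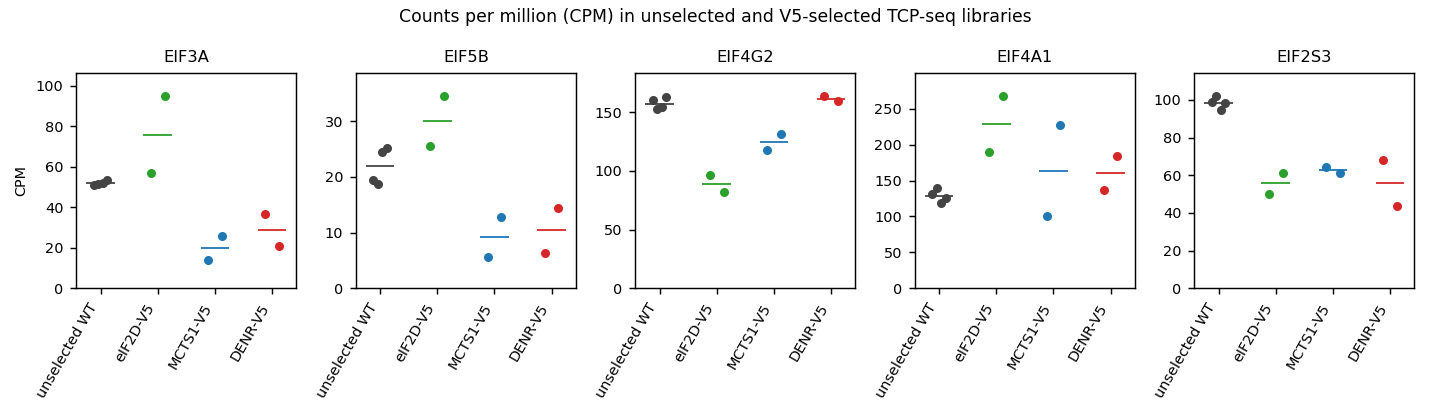
CPM in each unselected WT TCP-seq library and each 40S Sel-TCP-seq library selected through eIF2D-V5, MCTS1-V5 or DENR-V5, for 5 of the mRNAs. Points are libraries and lines group means; EIF3A and EIF5B are higher in both eIF2D-V5 libraries than in the 4 MCTS1-V5 and DENR-V5 libraries, EIF4G2 is lower, and EIF2S3 is below the unselected libraries in all 6 selected ones.

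Over the 20 group means, as log2(CPM + 1) centred within each assay, the closest pair of members was EIF5B and EIF3A (Pearson r = 0.79), and EIF3A and EIF4G2 were the most opposed (r = -0.68). EIF1 and EIF5 were hardly related (r = 0.16). Groups share controls, depth and protocol within an assay, so these values describe the 20 groups only. The selected groups, with few counts, weigh heavily in them. With eIF2D-V5, MCTS1-V5 and DENR-V5 the group means were 75.9, 19.9 and 28.6 CPM for EIF3A and 30.0, 9.24 and 10.4 for EIF5B, wider spreads than in the other assays. Correlations without the selected groups were not computed. Among 19705 transcripts with at least 5 CPM in every assay, the transcripts most like EIF1 were ENST00000310837.8 (r = 0.97), whose replicate deviations also followed those of EIF1 (r = 0.90) and which may share its reads, and ENST00000586699.1 (r = 0.89). Those most like EIF5 were ENST00000393412.7 (r = 0.85) and ENST00000356142.4 (r = 0.85).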

How the data were processed

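RNA-seq, Ribo-seq, TCP-seq and Sel-TCP-seq libraries of HEK293T cells (42 libraries in 20 groups) were analysed. The deposited table holds raw counts for each transcript, which the authors made. The tools listed in the submitters' processing notes are cutadapt, STAR, Subread and featureCounts, with the builds GRCh38.p13 and hg38. The sources used here give neither versions nor the strand setting, nor how reads over several transcripts were counted. Of 52 labelled samples, 10 in 5 groups (TCP-seq with a vector or re-expressed eIF2D) were not analysed here.

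Counts were tested with edgeR 4.0.16 (R 4.3.3) by the robust quasi-likelihood test with TMM factors and filterByExpr (minimum count 10), and p-values were adjusted by Benjamini-Hochberg over all transcripts tested, with a threshold of 0.05. The model had 1 coefficient for every group. Clones or siRNAs were averaged within a comparison, so the spread between them does not enter its p. Log2 changes follow the TMM scale and CPM the library totals. Standard errors were computed as the absolute log2 change divided by the root of the F statistic. Changes in translational efficiency came from the difference between the Ribo-seq and RNA-seq contrasts in 1 model. All 12 TCP-seq libraries shared a fit, with the 2 pairs of WT libraries as separate coefficients. Selected libraries were fitted alone (6 libraries) and with the 4 WT TCP-seq libraries. Alternatives were DESeq2 1.42.0, RLE size factors, library totals, no filter, a replicate block, other WT libraries and each library left out. The script was tested on simulated data. No 2 libraries held identical counts, and replicates of every group differed by more than counting noise.

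By rule, all 9 members are named in each of the 11 comparisons, those without a call often as a range. The members and lists were chosen with earlier results of these data known.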

Additional observations from a re-analysis of the deposited data

Results flagged for a closer look

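EIF1 in WT TCP-seq had 1 library far from the others, replicate 2 at 62.4 CPM, against 72.6 to 74.6 CPM in the other 3; chance gives such a gap in about 1 in 20 groups.

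The MCTS1 KO clones differed in RNA-seq by a test of the difference (clone #1 minus clone #2, log2, edgeR) for EIF1 (0.25, adjusted p = 1.9e-08), EIF5 (-0.24, adjusted p = 9.8e-08), EIF2S1 (-0.12, adjusted p = 0.034), EIF2S2 (-0.15, adjusted p = 0.0012), EIF3A (0.29, adjusted p = 1.1e-09) and EIF4G2 (-0.33, adjusted p = 1.8e-12), 6 of 9 members where 45.8% of all transcripts differed. In Ribo-seq they differed for EIF1 (0.56, adjusted p = 5.9e-06), EIF5 (-0.38, adjusted p = 0.0016), EIF4A1 (0.23, adjusted p = 0.014) and EIF3A (0.22, adjusted p = 0.039), where 18.6% of transcripts did. In translational efficiency they differed for EIF1 (0.31, adjusted p = 0.011), EIF2S2 (0.35, adjusted p = 0.013) and EIF4G2 (0.46, adjusted p = 0.00013), where 6.27% did.

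The DENR siRNAs differed in RNA-seq (siRNA #1 minus #2, log2) for EIF1 (-0.25, adjusted p = 0.0013), EIF5 (-0.37, adjusted p = 2.2e-05), EIF5B (-0.25, adjusted p = 0.012), EIF2S2 (-0.32, adjusted p = 0.00058) and EIF4G2 (-0.30, adjusted p = 5.9e-05), where 24.8% of transcripts differed. In Ribo-seq they differed for EIF1 (-0.27, adjusted p = 0.0034) and EIF5 (-0.48, adjusted p = 8.5e-06), where 11.1% did.

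In TCP-seq the eIF2D KO clones differed for EIF2S3 (0.43, adjusted p = 0.017), EIF4A1 (-0.44, adjusted p = 0.0063) and EIF3A (0.43, adjusted p = 0.037), and the MCTS1 KO clones for EIF4A1 (0.58, adjusted p = 0.00095). The MCTS1 KO change minus the eIF2D KO change was -0.63 for EIF3A (adjusted p = 0.040).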

How the results depend on the processing

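Of the 39 member calls over the 11 comparisons, 17 were kept by every alternative, and no member's called change turned its direction. The kept calls include EIF1, EIF2S3, EIF4A1 and EIF4G2 in RNA-seq of the MCTS1 KO, EIF1 in its Ribo-seq, EIF2S3 and EIF3A in its TCP-seq, EIF5B and EIF4A1 in both assays of DENR depletion, and the EIF3A efficiency change. No alternative left out a whole clone or siRNA, so a kept call can rest on clone #1 alone. In clone #2 alone, EIF4G2 in RNA-seq (293 and 291 CPM against 294 and 308 in WT) and EIF1 in Ribo-seq did not pass. Library totals gave 3 called members for RNA-seq of DENR depletion (main 6). DESeq2 gave 0 for TCP-seq of the eIF2D KO (main 1), 1 for eIF2D-V5 against the other tagged proteins (main 3, with no adjusted p for EIF5B) and 2 for MCTS1-V5 and DENR-V5 against unselected libraries (main 4). All 4 WT libraries gave 2 for TCP-seq of the eIF2D KO. RLE size factors changed no call.

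With 1 library left out, called members ran from 5 to 8 for RNA-seq and 1 to 4 for Ribo-seq of the MCTS1 KO, 3 to 7 for RNA-seq and 3 to 4 for Ribo-seq of DENR depletion, 0 to 0 for the MCTS1 KO and 1 to 2 for DENR depletion in translational efficiency, and 0 to 1 for the eIF2D KO and 2 to 3 for the MCTS1 KO in TCP-seq. They ran from 0 to 3 for eIF2D-V5 against the other tagged proteins, 4 to 6 for it against unselected libraries and 1 to 4 for MCTS1-V5 and DENR-V5 against unselected libraries. A lone library is then assumed to vary like the other groups.

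The replicate block changed no call: 8, 3 and 0 members in RNA-seq, Ribo-seq and efficiency of the MCTS1 KO, 6, 4 and 1 for DENR depletion, 1 for TCP-seq of the eIF2D KO and 3 for eIF2D-V5 against the other tagged proteins. Same-numbered replicates deviated together with r from -0.07 to 0.01 and -0.01 to 0.09 (MCTS1 KO, RNA-seq and Ribo-seq), -0.10 to 0.20 and -0.02 to 0.03 (DENR), -0.05 to 0.02 (eIF2D KO) and 0.10 to 0.38 (selected libraries), and the labels name no shared batch. Depth limits the selected libraries most.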
